A study of Drosophila melanogaster with 4 samples.

Results

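Regions enriched for histone H3 were examined on the mapped heterochromatin of *Drosophila melanogaster* and on chromosome 4. Members were chosen by arm name alone: every region with a value above 0 on 2LHet, 2RHet, 3LHet, 3RHet, XHet or YHet, called the Het arms here, or on 4. A region with such a value is called a cluster. The combined list, which the authors made for the replicate set, held 755 such clusters of 23076 in the genome, 700 on the Het arms and 55 on chromosome 4. Replicate 1 held 398 of 18082 clusters, 361 on the Het arms and 37 on chromosome 4. Replicate 2 held 407 of 18625, 374 on the Het arms and 33 on chromosome 4. No measured value other than the sign of the combined value entered the choice.

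The series has 4 libraries from nuclei of wild-type Oregon-R larvae of the 3rd instar: 2 from chromatin immunoprecipitation followed by sequencing (ChIP-seq) with an antibody against H3, and 2 from input chromatin. All libraries share that strain, genotype and stage, and there was no treatment. The labels name whole larvae as the source and give neither their sex nor whether the replicates came from separate cultures, so the spread between replicates may be technical. Each cluster carries its position on FlyBase r5 and 1 value on a log2 scale, taken as enrichment of ChIP over input. Without read counts the sequencing depth is unknown.

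Heterochromatin is the densely packed part of the genome around the centromeres, rich in repeated sequence and poor in genes. In flies it carries methylated lysine 9 of histone H3 and is bound by heterochromatin protein 1a (HP1a). The Het arms are assembled pieces of it that were assigned to a chromosome arm but lie outside the main arm sequence. Chromosome 4, the dot chromosome, is small and also carries HP1a and lysine 9 methylation, yet its genes are expressed, and the chromosome-specific protein POF binds along it. H3 itself is a core histone of nearly every nucleosome, so an antibody against it does not single out either kind of chromatin.

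Clusters were sparse on these arms in both replicates. They covered 8.81% of the Het arms in replicate 1 and 9.55% in replicate 2, and 5.48% and 5.56% of chromosome 4. The large arms (2L, 2R, 3L, 3R and X) were covered to 38.9% and 42.8%. The Het arms had 39.6 ± 0.99 clusters per Mb (SD, n = 2), chromosome 4 had 25.9 ± 2.09 and the large arms had 149 ± 2.80. In clusters per Mb the replicates of each class lay closer to each other than any of these 3 classes lay to another. Differences between classes of arm were not tested, because an exact permutation over 2 pairs cannot give a two-sided p below 0.5. Both replicates' values are given side by side.

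In the combined list the Het arms were covered to 16.8% and chromosome 4 to 8.37%, against 56.1% of the large arms. The main-arm sequence nearest the centromeres, 2 Mb at the centromeric end of each large arm, lay between. It had 101.4 and 105.5 clusters per Mb in the replicates and was covered to 24.3% and 26.9%. Whether the low coverage reflects sequence on which reads could not be placed was not tested, and how repeated sequence was handled is not known here.

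The 6 Het arms differed among themselves. XHet, the shortest at 204112 bp, had the highest share in clusters, 13.9% in replicate 1 and 11.5% in replicate 2. It was followed by 3RHet with 11.0% and 11.9%, and 3LHet with 10.1% and 10.2%. 2LHet had 7.67% and 8.27%, and 2RHet, the longest at 3288761 bp, had 6.69% and 7.96%. YHet, from the mostly heterochromatic Y chromosome, had 1.54% and 2.57%. XHet was above 3RHet in replicate 1 and below it in replicate 2, so their order was not resolved, and 2LHet and 2RHet lay within 1 percentage point of each other in both replicates. YHet was the lowest Het arm in both replicates and in the combined list.

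**Figure D1:**
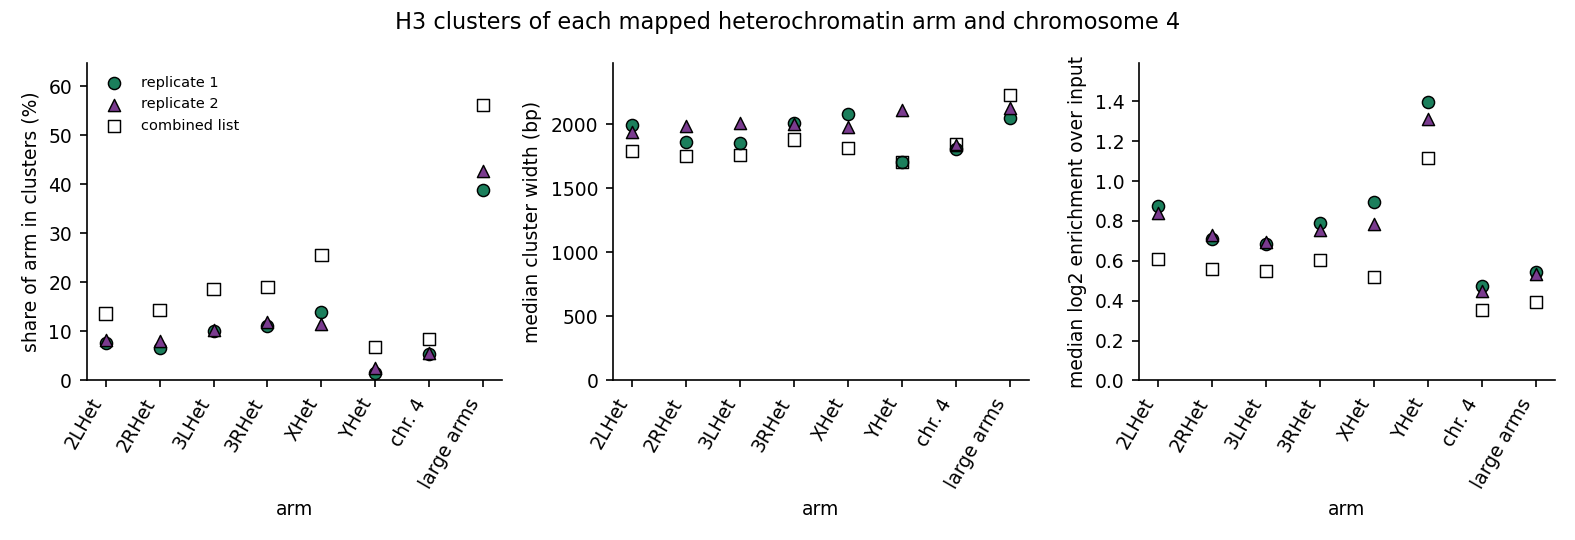
For each Het arm, chromosome 4 and the 5 large arms together, the panels show the share of the arm in clusters (%), the median cluster width (bp) and the median log2 enrichment over input. Circles are replicate 1, triangles replicate 2 and open squares the combined list; YHet stands apart with the lowest coverage (1.54% and 2.57%) and the highest median value (1.40 and 1.31).

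Widths differed little between the arms. The median width was 1918 bp in replicate 1 and 1998 bp in replicate 2 on the Het arms, 1806 and 1834 bp on chromosome 4, and 2045 and 2124 bp on the large arms. Clusters of at least 3 kb made up 16.9% and 19.0% on the Het arms and 8.11% and 15.2% on chromosome 4, against 26.2% and 30.2% on the large arms. The combined list gave 19.1%, 10.9% and 34.2%. The 3 classes thus differed more in clusters per Mb than in median width.

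The widest Het cluster of the combined list lay on 3RHet at 1639934 to 1654816. It was 14.9 kb wide, had a log2 value of 1.12 and was covered over 93.9% of its length by replicate 1 and 97.9% by replicate 2. Next came 3RHet 2093466 to 2102322, 8857 bp wide with a value of 1.03, covered over 98.6% and 97.8%. A neighbour on the same arm, 2084662 to 2092228, was 7567 bp wide with a value of 0.65 and coverage of 54.7% and 41.5%. The other 2 of the 5 widest were XHet 175416 to 184136 with 8721 bp and a value of 0.81, and 3RHet 1784880 to 1793044 with 8165 bp and a value of 0.76. Thus 4 of the 5 widest lay on 3RHet, and all 5 were found at least in part in both replicates. The genes at these places are not named, because no annotation of FlyBase r5 was used here.

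Het clusters had higher median values than large-arm clusters. Values exist only for called clusters, so they do not describe the sequence between clusters. The median log2 value was 0.73 in both replicates on the Het arms, 0.47 and 0.45 on chromosome 4, and 0.54 and 0.53 on the large arms. Chromosome 4 was thus the lowest of the 3 classes. By arm the medians were 0.88 and 0.84 on 2LHet, 0.71 and 0.73 on 2RHet, 0.69 and 0.69 on 3LHet, and 0.79 and 0.75 on 3RHet. XHet had 0.89 and 0.78, and YHet 1.40 and 1.31. All 6 Het arms exceeded the median of the large arms in both replicates.

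Since width classes over 2 kb had higher median values than those below on the Het arms, chromosome 4 and the large arms, each cluster was set against large-arm clusters of its own width class. The classes were below 1500, 1500 to 2000, 2000 to 3000, 3000 to 5000 and above 5000 bp. At the same width, the median Het cluster was higher by 0.20 log2 units in replicate 1 and 0.22 in replicate 2, a mean of 0.21 ± 0.0093 (SD, n = 2), or 1.15- and 1.16-fold. The value was above the large-arm median of its width class in 323 of 361 Het clusters of replicate 1 and 323 of 374 of replicate 2. The difference held in every width class of both replicates. Among clusters over 5 kb the medians were 0.97 and 0.98 on the Het arms against 0.71 and 0.75 on the large arms.

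On chromosome 4 the same difference was 0.018 in replicate 1 and 0.0025 in replicate 2, a mean of 0.010 ± 0.011 (SD, n = 2), which is within the spread between the replicates. Of its clusters 21 of 37 and 17 of 33 were above the large-arm median. Its sign depended on how the comparison was made: it was -0.0055 against the 200 large-arm clusters nearest in width and -0.0032 against clusters in the 2 Mb nearest the centromeres. Among clusters at or above the median value of their list it was 0.19, and 0.18 on the Het arms. That threshold kept clusters by the same values that were then compared. It left 9.25 clusters per Mb on chromosome 4 of 25.9, so no likeness to the Het arms is drawn from it. The pericentric clusters, those in the 2 Mb nearest the centromeres, were themselves close to the other large-arm clusters, with differences of 0.0052 and 0.012. The higher values of the Het clusters were not seen in clusters of that part of the main arms.

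By arm, the difference at equal width ranged on the Het arms from 0.15 and 0.18 on 3LHet to 0.80 and 0.87 on YHet. It was 0.29 and 0.23 on 2LHet, 0.19 and 0.20 on 2RHet, 0.24 and 0.23 on 3RHet and 0.28 and 0.24 on XHet. The X, the highest of the large arms by this measure, had 0.080 and 0.072. U, which joins scaffolds with no position, exceeded all Het arms but YHet with 0.44 and 0.67.

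**Figure D2:**
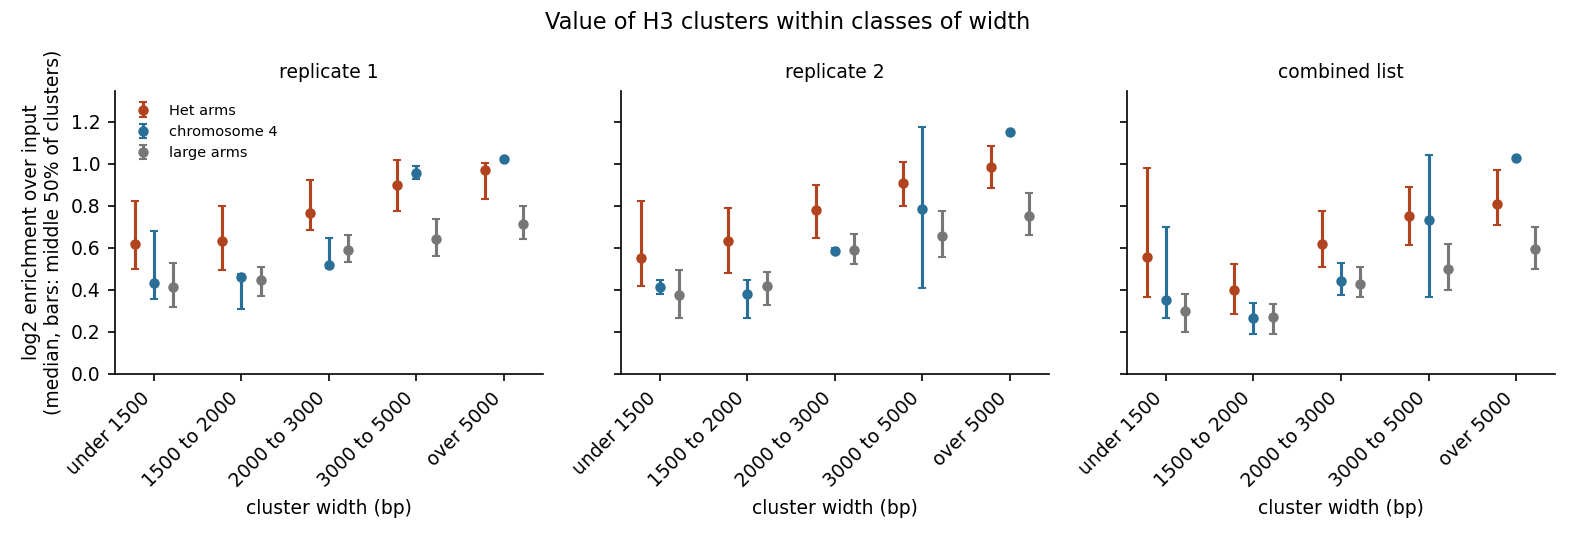
Log2 enrichment over input against cluster width in 5 classes (bp), for the Het arms, chromosome 4 and the large arms in each list. Points are medians and bars span the middle 50% of clusters. The Het arms lie above the large arms in every class. Chromosome 4 has 1 to 5 clusters in each of the 2 widest classes and comes near or above the Het arms only there. Over 5000 bp its 1 cluster is above the Het median in each list. From 3000 to 5000 bp its median is above that of the Het arms in replicate 1 alone.

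The 10 YHet clusters show how few places stood behind that arm's values. Replicate 1 had clusters at 24499 to 26608 with a value of 1.40, at 305969 to 307673 with 0.87 and at 339805 to 341331 with 1.48. Replicate 2 had them at 24883 to 30343 with 1.31, at 267511 to 269617 with 1.65 and at 341285 to 342626 with 1.25. The first pair overlapped broadly and the last pair by 47 bases, while the middle ones lay apart. In the combined list the values ran from 0.74 to 2.28, and 0 of 10 clusters were covered over at least 50% by both replicates.

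High values were a matter of a minority of clusters. A log2 value above 1, at least a doubling over input, was reached by 58 Het clusters of replicate 1 (16.1%) and 67 of replicate 2 (17.9%), against 1.43% and 2.94% of all clusters in the genome. On chromosome 4 it was reached by 5 of 37 and 5 of 33 clusters, 13.5% and 15.2%. On the large arms it was reached by 0.533% and 1.67%. In the combined list 111 Het clusters (15.9%) and 10 chromosome 4 clusters (18.2%) were above 1, with 2.82% over all arms. Chromosome 4 thus had the lowest median of these classes and yet a share of high clusters close to that of the Het arms.

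The clusters above 1 on chromosome 4 lay at its ends. Replicate 1 had 2 in the first 75 kb and 3 in the last 75 kb, replicate 2 had the same numbers, and neither had any between. The 75 kb edges were chosen after the values had been seen. In replicate 1 the 11 clusters of the end zones had a median of 0.90 (0.31 to 1.83), and the 26 between had 0.46 (0.14 to 0.97). In replicate 2 the 10 end clusters had a median of 1.04 (0.27 to 1.47), and the 23 between had 0.41 (0.062 to 0.64). The ranges overlapped, but the medians differed by 0.43 and 0.63 log2 units, a mean of 0.53 ± 0.14 (SD, n = 2). In the combined list the 17 end clusters had a median of 1.03 and the 38 between 0.32, a difference of 0.71.

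At equal width, the end clusters of chromosome 4 were above the large arms by 0.27 and 0.37 in the replicates and those between differed from them by -0.039 and -0.012. Of the end clusters 9 of 11 and 8 of 10 exceeded the large-arm median of their width class. Of those between, 12 of 26 and 9 of 23 did. The end zones were also denser. The last 75 kb had 107 and 93.3 clusters per Mb and were covered to 22.8% and 21.2%, the first 75 kb had 40.0 and 40.0 per Mb with 15.3% and 20.1%, and the stretch between had 21.6 and 19.1 per Mb with 3.78% and 3.67%.

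**Figure D3:**
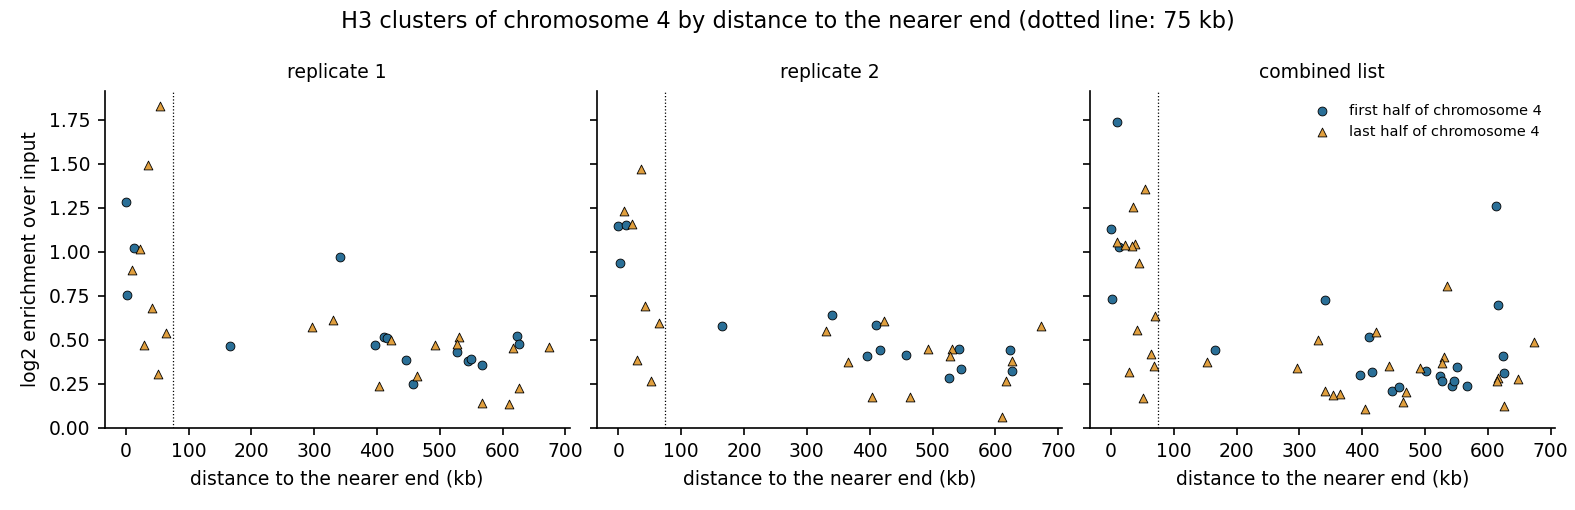
Log2 enrichment over input of each chromosome 4 cluster against its distance to the nearer end (kb) in the 3 lists. Circles lie nearer the first base and triangles nearer the last; left of the dotted line at 75 kb the medians are 0.90, 1.04 and 1.03, and right of it 0.46, 0.41 and 0.32.

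The widest chromosome 4 cluster, at 12916 to 24242 of the combined list, was 11.3 kb wide with a value of 1.03. It was covered over 71.4% by replicate 1, where the value was 1.02, and over 98.5% by replicate 2, where it was 1.15. Near the other end, 1325702 to 1329542 was 3841 bp wide (1.04 combined, 1.02 in replicate 1, 1.16 in replicate 2), and 1338866 to 1342470 was 3605 bp wide (1.05 combined, 0.90 and 1.23 in the replicates). The cluster at the first assembled bases, 16 to 1710, had values of 1.13, 1.28 and 1.15 in the same order. These 4 were found in both replicates. The remaining 2 of the 5 widest were 396222 to 399626, an inner cluster with a value of 0.30, and 1886 to 5018 with 0.73.

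Of the 5 highest combined values on chromosome 4, 2 had no base in a replicate cluster: 9590 to 11514 with 1.74 and 612750 to 614646 with 1.26. The second was the single cluster above 1 between the end zones. The cluster at 1295214 to 1297056 (1.36) was covered over 75.1% by replicate 1 and not at all by replicate 2. The cluster at 1314372 to 1316590 (1.25) was covered over 91.0% and 79.4%, and its replicate counterparts had nearly equal values of 1.49 and 1.47. The end pattern was thus present in clusters found in both replicates, while the single highest value was not.

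Pooled, the Het arms showed no such pattern along their length. Clusters in their first 75 kb had medians of 0.70 and 0.73 in the replicates, those in the last 75 kb 0.87 and 0.70, and those between 0.73 and 0.74. Single arms could differ. On 2LHet the first 100 kb had medians of 1.04 and 0.93 and the next 100 kb 0.61 and 0.61. On XHet the first had 0.51 and 0.53 and the next 0.95 and 0.89. These arms went in opposite directions, with 4 to 8 clusters in each window. The ends of the large arms, with medians between 0.50 and 0.55, also lay close to the 0.54 and 0.53 of their interior.

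Clusters lay far apart on these arms. The median gap from a cluster to the next was 12313 bp in replicate 1 and 12060 bp in replicate 2 on the Het arms, and 15683 and 15596 bp on chromosome 4. On the large arms it was 2007 and 1826 bp. The mean gap was larger than the median on each class of arm, the large arms included. As means of both replicates it was 22416 bp against 12187 bp on the Het arms and 37416 bp against 15639 bp on chromosome 4. On the large arms it was 3973 bp against 1917 bp. A minority of long gaps held much of the sequence. The Het arms had 48 gaps over 50 kb in each replicate, which together spanned 4085 kb and 3919 kb of 9.28 Mb. Chromosome 4 had 7 in each, which spanned 799 kb and 853 kb of 1.35 Mb.

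**Figure D4:**
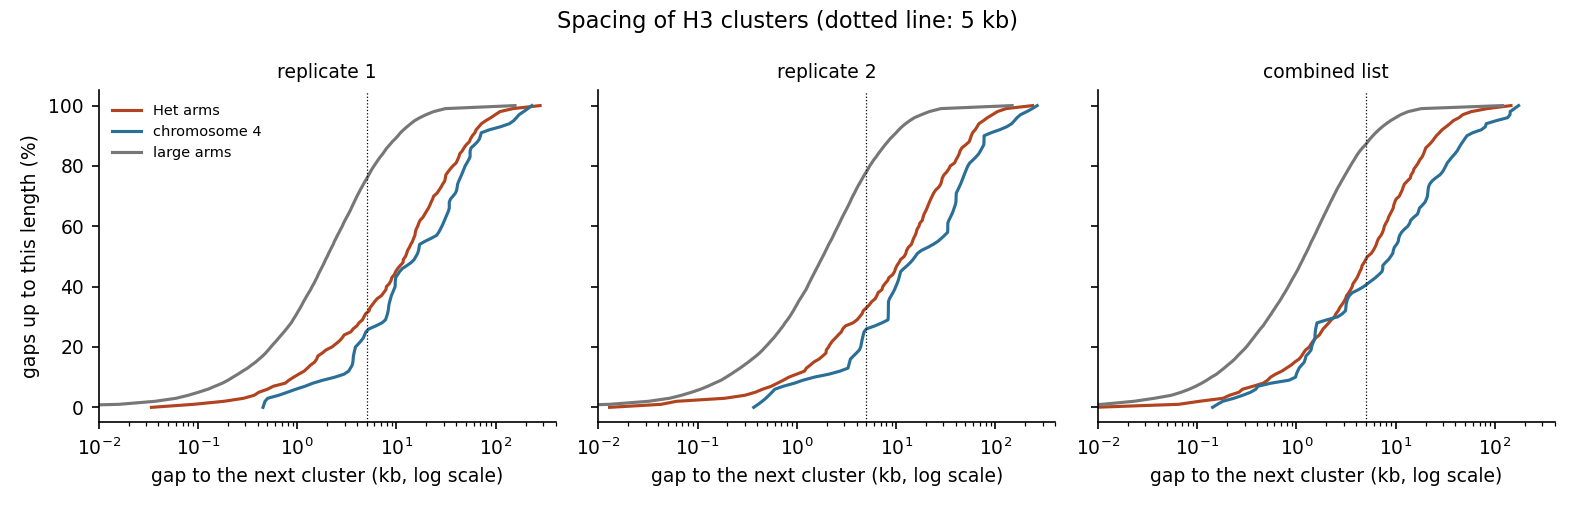
Cumulative share of gaps between neighbouring clusters (%) against gap length (kb, log scale) for the Het arms, chromosome 4 and the large arms in the 3 lists. The curves of the Het arms and chromosome 4 lie to the right of the large arms at nearly all lengths, with median gaps of 12.3 and 12.1 kb on the Het arms in the replicates against 2.01 and 1.83 kb on the large arms.

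A neighbour within 5 kb was found for 51.8% of Het clusters in replicate 1 and 52.4% in replicate 2, and for 43.2% and 48.5% of chromosome 4 clusters. Over the genome the shares were 90.0% and 90.9%. In the denser combined list they were 72.7% on the Het arms and 61.8% on chromosome 4, with 95.2% over the genome. Runs, in which each gap is at most 5 kb, were short. Single clusters made up 48.2% and 47.6% of Het clusters, and the longest run held 5 and 7. On chromosome 4 single clusters were 56.8% and 51.5% and the longest run held 4 in both. On the large arms 8.34% and 7.39% were single, and runs reached 43 and 95. These shares and run lengths depend on clusters per Mb, 39.6 on the Het arms, 25.9 on chromosome 4 and 149 on the large arms. They were not adjusted for it, so they do not show whether clusters lie closer together than their density implies.

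The number of clusters in 50 kb windows had a variance above its mean on the pooled Het arms and on chromosome 4. The ratio of variance to mean was 1.34 and 1.48 on the Het arms and 1.19 and 1.34 on chromosome 4, against 1.16 and 1.07 on the large arms. The Het ratio pools arms of unlike density. By arm it was above 1 in both replicates on 2LHet, 2RHet and 3RHet. It was 0.869 and 1.20 on 3LHet, 0.692 and 1.06 on XHet, and 1 and 0.8 on YHet. Of 183 Het windows 42 and 40 were empty, and of 27 chromosome 4 windows 8 and 10 were. Of the large arms' 2378 windows 15 and 18 were empty. The ratios and their order depended on the window. Over 100 kb windows chromosome 4 had 0.854 and 0.762, below 1 in both replicates. The Het arms had 1.38 and 1.60 and the large arms 1.69 and 1.53, so that the Het arms were below the large arms in replicate 1 and above them in replicate 2.

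In the combined list the Het run with the most clusters was 3LHet 1483242 to 1535694, with 11 clusters over 52.5 kb. Clusters covered 54.1% of it, their values ran from 0.043 to 3.02 around a median of 0.80, and replicate 1 and replicate 2 had 6 and 7 clusters in it. XHet 76908 to 125266 held 10 clusters over 48.4 kb with a median of 0.55, and 2RHet 3021678 to 3048464 held 10 over 26.8 kb with a median of 0.60. The XHet run had 5 and 4 replicate clusters and the 2RHet run 5 and 3. Being in a run did not go with higher values on the Het arms. Combined clusters had a median of 0.57 whether single, in runs of 2 or 3, or in longer ones.

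On chromosome 4 the 2 runs of 4 or more were at the ends. One reached from 1305482 to 1329542 with 7 clusters, 57.9% of its length covered and a median of 1.03. The other reached from 16 to 24242 with 4 clusters, 74.6% covered and a median of 1.08. They held 4 and 4, and 3 and 3, replicate clusters. The next run, 542504 to 552530, had 3 clusters with a median of 0.27 and lay in the interior.

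The longest stretches without a combined cluster on the Het arms were all on 2RHet. They were 145 kb at 1139289 to 1284225, 139 kb at 2646949 to 2786115 and 134 kb at 2448645 to 2582947. On chromosome 4 they were 173 kb at 167583 to 340551, 142 kb at 1055097 to 1197451 and 141 kb at 24243 to 165545. No replicate cluster was centred in any of these 6 stretches. On chromosome 4 the first of them and the third are separated by a single combined cluster, seen in both replicates with values of 0.47 and 0.58, so that this cluster stood alone between 24242 and 340551. How much of these stretches is sequence on which reads can be placed was not tested.

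Most replicate clusters of both classes of arm were found again in the other replicate. A cluster counted as shared when the other replicate covered at least 50% of it. On the Het arms 77.3% of replicate 1 and 73.0% of replicate 2 were shared, with 88.5% and 81.0% over all arms. On chromosome 4 31 of 37 (83.8%) and 31 of 33 (93.9%) were. Over 276 overlapping pairs of Het clusters the values had a Pearson correlation of 0.828 and a Spearman correlation of 0.841, as a description across clusters of the same libraries. Replicate 2 exceeded replicate 1 by a median of 0.0078, with an SD of 0.16 over pairs. Over 31 pairs on chromosome 4 the correlations were 0.921 and 0.879 and the median difference was -0.046 with an SD of 0.13.

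The Het pair farthest apart was on 3RHet, with 1.70 in replicate 1 (1422944 to 1424701) and 0.65 in replicate 2 (1424664 to 1426346). These clusters share 38 bases. Next was a pair that overlapped over most of its length, 3RHet 50470 to 52304 with 0.74 and 50503 to 52742 with 1.33.

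Of the combined Het clusters, 239 of 700 (34.1%) were covered over at least 50% by both replicates, with a 95% Wilson interval of 30.7 to 37.7%. Over all arms the share was 55.3%. On chromosome 4 30 of 55 were (54.5%, 41.5 to 67.0%). Clusters without a base in either replicate numbered 284 on the Het arms (40.6%) and 18 on chromosome 4 (32.7%), with 22.8% over all arms. The intervals cover counting error alone and treat clusters as independent, which neighbours are not. The share differed with width. Below 1500 bp 0 of 254 Het clusters were covered by both, and the narrowest cluster was 1001 bp in the combined list but 1301 bp in the replicate lists. From 1500 to 2000 bp 40 of 160 were, and over 5 kb 82.9% were.

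At the large arms' rates in each width class, 44.1% of Het clusters and 45.1% of chromosome 4 clusters would have been covered by both. The observed 34.1% on the Het arms was below that. The observed 54.5% on chromosome 4 was above it, with an interval of 41.5 to 67.0% that includes 45.1%. Since the intervals treat neighbouring clusters as independent, neither difference is called resolved. In each width class the Het arms were below the large arms. The shares were 25% against 46.6% from 1500 to 2000 bp and 69.1% against 78.1% from 2000 to 3000 bp. They were 65.7% against 79.8% from 3000 to 5000 bp, and 82.9% against 93.9% above. Replicate clusters covered 38.9% and 42.8% of the large arms but 8.81% and 9.55% of the Het arms. Overlap by coincidence is thus likelier on the large arms, and it was not subtracted here or in the shares above. How much of the gap this makes was not tested.

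**Figure D5:**
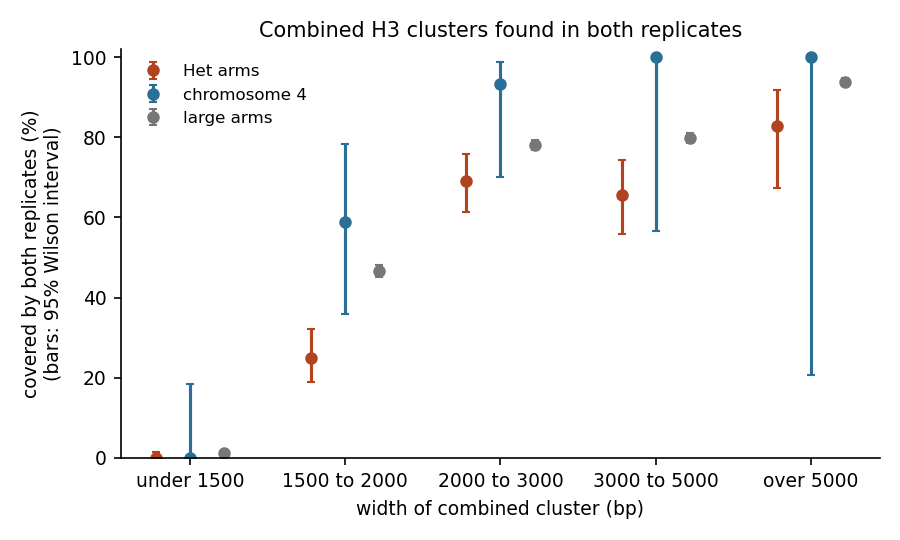
Share of combined clusters covered over at least 50% by both replicates (%) against width class (bp), with 95% Wilson intervals, for the Het arms, chromosome 4 and the large arms. The Het arms lie below the large arms in each class, with 25% against 46.6% from 1500 to 2000 bp; the point of chromosome 4 over 5000 bp is 1 cluster.

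The highest Het values came from narrow clusters that the replicates did not share. The 5 highest of the combined list were 3LHet 1257296 to 1258304 with 3.28, 3LHet 1514672 to 1515672 with 3.02, 3RHet 1081574 to 1082574 with 2.87, 3LHet 650132 to 651156 with 2.78 and 2RHet 2087212 to 2088336 with 2.60. They were 1001 to 1125 bp wide. The one at 650132 lay wholly within a replicate 1 cluster and had no base in replicate 2, and the other 4 had no base in either replicate. Support by both replicates rose with value up to 1, to 43.8% between 0.5 and 0.75 and 56.4% between 0.75 and 1. It was 13.7% between 1 and 2, and 1 of 16 above 2. The 95 clusters between 1 and 2 had a median width of 1631 bp, and the 110 between 0.75 and 1 had 3012 bp. On the large arms the shares in the same order were 92.1%, 94.0%, 51.0% and 5.56%.

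The replicate lists, which had no cluster under 1301 bp, gave a smaller contrast. Of Het clusters above 1, 60.3% in replicate 1 and 53.7% in replicate 2 were shared, against 81.3% and 79.7% of those between 0.5 and 1. On the large arms 81.7% and 94.3% of clusters above 1 were shared, against 93.8% and 90.0% of those between 0.5 and 1, so the share was lower above 1 in both replicates on the Het arms and in replicate 1 alone on the large arms. The median widths of the Het clusters were close, 2084 and 2063 bp above 1 and 2000 and 2088 bp below it. On chromosome 4, 4 of 5 clusters above 1 in replicate 1 and 5 of 5 in replicate 2 were shared.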

How the data were processed

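The labels' protocols describe formaldehyde fixation, sonication and immunoprecipitation. The submitters' processing notes name Bowtie 0.12.7, and FlyBase r5 is the build per the file headers. Not given in the sources used here are the region caller and its thresholds, how ChIP was scaled to input, how reads from repeated sequence were placed, how the combined list was made, and whether a value is a mean or a maximum. The authors called regions with 1 input for each replicate, per the labels, and deposited 1 value for each, which no header gives a unit and which was taken as log2 enrichment as deposited. The scale was read from the values, by comparing in pairs up to 40 of the highest distinct values on these arms. Of the differences 323 of 780, 190 of 666 and 525 of 703 (replicate 1, replicate 2, combined list) equalled the log2 of a whole-number ratio (denominator at most 100, tolerance 1e-08). As natural logs 0 did, and as log10 at most 5. The inputs have no files of their own here, so the background enters only through the authors' ratio.

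Shares of an arm used the lengths in the file headers. Clusters, gaps and windows were computed with pandas 2.3.3, numpy 2.4.6 and scipy 1.17.1 under Python 3.11.15, tested on simulated lists, and plotted with matplotlib 3.10.9. Means are given with the SD of the 2 ChIP replicates. Depth is unknown, so no interval for a single value was made. Regions named are, for the Het arms and for chromosome 4, the 5 widest and 5 highest clusters, the 3 runs with most clusters and the 3 longest stretches without one, and in addition replicate pairs and YHet clusters that were chosen after their values were seen. The members, width classes and measures were chosen with earlier results of these data known. No sequence is printed, since no genome of this build was used.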

Additional observations from a re-analysis of the deposited data

How the results depend on the processing

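With 2 replicates, leaving out either returns the value of the other, so the ranges below restate the replicates and are no separate check. Without replicate 1 or 2 the Het arms were covered to 8.81 to 9.55% at 38.9 to 40.3 clusters per Mb, with widths of 1918 to 1998 bp, values of 0.73 to 0.73, 0.20 to 0.22 above the large arms at equal width, gaps of 12060 to 12313 bp, 51.8 to 52.4% with a neighbour, a window ratio of 1.34 to 1.48 and 73.0 to 77.3% shared. Chromosome 4 gave 5.48 to 5.56%, 24.4 to 27.4 per Mb, 1806 to 1834 bp, 0.45 to 0.47, 0.0025 to 0.018, 15596 to 15683 bp, 43.2 to 48.5%, 1.19 to 1.34 and 83.8 to 93.9%, and its ends exceeded its interior by 0.43 to 0.63.

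The combined list gave, on the Het arms, 16.8% covered, 75.4 per Mb, 1785 bp, a value of 0.57, 0.20 at equal width, gaps of 5198 bp and 72.7% with a neighbour. On chromosome 4 it gave 8.37%, 40.7 per Mb, 1843 bp, 0.35, 0.026, 8911 bp, 61.8% and a window ratio of 1.98, and 0.71 for the ends. Keeping clusters at or above the median value of their list gave 7.72%, 30.8 per Mb, 2087 bp, 0.81, 0.18, 15268 bp and 43.6% on the Het arms, with 38.8% of combined clusters covered by both replicates. On chromosome 4 it gave 2.58%, 9.25 per Mb, 2098 bp, 0.82, 0.19, 39263 bp, 32.5%, a ratio of 2.07 and 24 combined clusters. Merging clusters closer than 500 bp gave 37.1 per Mb, 0.74, 13461 bp, 45.6% and a ratio of 1.29 on the Het arms, and 5.58%, 1760 bp, 19143 bp and 36.5% on chromosome 4.

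At equal width, leaving out the X gave 0.22 on the Het arms and 0.024 on chromosome 4. Pericentric clusters as reference gave 0.20 and -0.0032, and the 200 nearest in width gave -0.0055 on chromosome 4. A neighbour within 2 kb was found for 33.6% (Het) and 22.9% (chromosome 4), and within 10 kb for 68.1% and 62.7%. Windows of 25 kb gave 1.19 on the Het arms and windows of 100 kb gave 0.808 on chromosome 4. An overlap of 80% gave 64.7% and 77.1% shared, and 20.3% and 29.1% covered by both; an overlap of 1 bp gave 38.3% on the Het arms. These alternatives left the order of the Het arms and chromosome 4 in coverage, density and value at equal width, with 1 exception. Among values at or above the median, the Het arms' 0.18 was below chromosome 4's 0.19. That subset was chosen by the values compared.

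Chosen after seeing the data were the end zones, leaving out the ends (chromosome 4: 0.44, and -0.025 at equal width), leaving out YHet (Het arms: 0.73) and a minimum of 1301 bp (46.7% and 76.9% covered by both). The ends exceeded the interior by 0.61 with zones of 50 kb. Zones of 100 kb held the same replicate clusters as those of 75 kb, so their 0.53 is the same value and no separate check. The cause of these differences was not tested, except that a minimum on the value raises it by construction. No paired analysis was possible because the inputs, which share replicate numbers with the ChIP libraries, have no values here. Unknown depth and 55 clusters limit chromosome 4.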

Other observations

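Few regions were depleted, that is with a value below 0. The combined list had 256 in the genome, of which 1 was on 3LHet and 2 were on chromosome 4. That is 0.108 per Mb on the Het arms and 1.48 per Mb on chromosome 4, against 2.12 per Mb on the large arms. Enriched clusters were also fewer per Mb on these arms, so the rates are not shares of the regions called. The 1 on the Het arms stood beside 700 enriched clusters, the 2 on chromosome 4 beside 55, and the 252 on the large arms beside 21561. The replicate lists had 3 and 10 in the genome, all on the large arms. Of the combined list's depleted regions, chromosome 4 740422 to 742078 had a log2 value of -0.00068. It coincided with enriched clusters in both replicates, at 740567 to 742077 with 0.14 and at 740400 to 742023 with 0.062. On 3LHet the depleted region 1804218 to 1805664 had a value of -0.015 and coincided with a replicate 1 cluster at 1804155 to 1805649 with 0.34. A combined value was therefore not always between the values of its replicates.

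Exact repeats of a value were counted among the clusters of the same class of arm in a list. On the large arms 49.5% and 42.2% of replicate clusters had a value that recurred in the class. On the Het arms it was 6.93% and 6.42%, and on chromosome 4 none of 37 and 33. On U it was 13.3% and 25.1%. A class with more clusters has more chances of a repeat, so these shares cannot be compared between classes. In the combined list the Het clusters whose value recurred among Het clusters, 81 of 700, were narrow, with a median of 1297 bp, and had a median value of 0.73.

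Neighbouring Het clusters at most 5 kb apart had somewhat similar values in the combined list, with a Spearman correlation of 0.28 over 340 pairs, as a description across clusters. Over 100 neighbouring pairs more than 20 kb apart it was 0.089. In replicate 1 the same correlations were 0.23 and 0.0056, and in replicate 2 they were 0.19 and 0.22, so the contrast was not present in both replicates.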
